A study of Sus scrofa with 2 samples.

Results

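Reads of the miR-30 family were compared in pig *longissimus dorsi* muscle (LDM), which lies along the back and works mainly by glycolysis, and *psoas major* muscle (PMM), which lies in the loin and is oxidative. Its members were taken by name from the deposited table as every pig entry (prefix ssc) numbered miR-30a, 30b, 30c, 30d or 30e, with all arms and copies. There were 11 such entries of 668 in the table and of 281 with the pig prefix, and they stood for 12 named mature miRNAs because miR-30c-1-5p and miR-30c-2-5p shared 1 entry, called miR-30c-5p here. All 11 were listed above 0 in both libraries. As the study's methods state, the muscles came from 3 female Landrace pigs aged 210 days, on the same diet and with feed removed before slaughter. Their RNA was pooled in equal parts for each muscle, and no treatment is named. There was 1 small RNA library per muscle, so the spread between pigs was not measured, no difference has a replicate check and no p-value is given.

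A miRNA is cut from a hairpin precursor whose 5p and 3p arms can each yield a mature strand. The strand that is loaded into the silencing complex is called the guide, and its seed, bases 2 to 8, pairs with target mRNAs. The other strand, the passenger, is mostly degraded. In the miR-30 family the 5p arm is known as the guide. The family is abundant in heart and skeletal muscle. In mouse myoblasts it promotes differentiation, and in rat heart cells it has been linked to mitochondrial fission and to the matrix regulator CTGF.

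The 5p consensus sequences are shown because every member shares the seed, in capitals, and because the members are told apart by few bases behind it.
miR-30a-5p: tGTAAACAtcctcgactggaagct
miR-30e-5p: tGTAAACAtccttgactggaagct
miR-30d-5p: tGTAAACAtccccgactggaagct
miR-30c-5p: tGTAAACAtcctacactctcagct
miR-30b-5p: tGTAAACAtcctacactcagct
All 5 shared the first 11 bases and the last 4. Counted from 1 at the 5′ end, miR-30a-5p and miR-30d-5p differed only by T12C and miR-30a-5p and miR-30e-5p only by C13T, where the base of miR-30a-5p stands first. miR-30b-5p was 2 edits from miR-30c-5p. The seed GTAAACA occurred in 5 entries of the table, all of them miR-30, and no entry with another prefix lay within 3 edits of any miR-30 sequence. Of the 5, 4 had a consensus of 24 nt and miR-30b-5p had 22 nt, whereas 5.71% of the other 140 pig 5p entries were 24 nt long.

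The 3p consensus sequences fell into 3 seed groups, again in capitals, and are shown because these groups cross the genomic clusters described below.
miR-30a-3p: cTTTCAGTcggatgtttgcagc
miR-30e-3p: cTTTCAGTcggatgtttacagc
miR-30d-3p: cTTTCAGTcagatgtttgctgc
miR-30c-2-3p: cTGGGAGAaggctgtttactct
miR-30c-1-3p: cTGGGAGAgggttgtttactcc
miR-30b-3p: cTGGGAGGtggatgtttacttc
All 6 were 22 nt long. miR-30a-3p and miR-30e-3p differed only by G18A, with the base of miR-30a-3p first.

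LDM held 8750049 normalised reads and PMM 8556672. Because the normalisation is not given, an LDM value was taken as a whole number of reads times 1.15 and a PMM value as the reads themselves. The intervals below are 95% intervals of these reads and cover counting error only. Most entries of the table were higher in PMM, and the median log2 ratio of PMM to LDM was 0.47 (1.39-fold) over the 91 entries averaging 100 RPM or more (RPM, reads per library total of 1000000). A ratio near 1.39 thus lay at the middle of these libraries. The muscle miRNAs miR-1, miR-133a, miR-133b and miR-206 were all present and summed to 685938 RPM in LDM and 509410 RPM in PMM. Of these 4, 1 was higher in PMM. Of the slow fibre markers miR-499 and miR-208b, 2 of 2 were higher in PMM (5.33-fold for their sum). Marker sums of other cells in muscle were also higher in PMM, with 1380 and 2788 RPM for endothelium (2 of 3 markers higher), 2269 and 5008 RPM for fibroblasts (2 of the 2 found by name out of 3), 17029 and 29261 RPM for smooth muscle (2 of 2) and 117 and 214 RPM for leukocytes (3 of the 3 found out of 4). The red blood cell sum was 853 and 1027 RPM from 1 of 2 markers, and the liver marker miR-122 stood at 0.921 and 1.17 RPM. The epithelial sum was 3.68 and 1.64 RPM from 2 of 6 markers, of which 1 was higher in PMM. Their part in the values below was not tested, and in pooled tissue RNA more cells of a type cannot be told apart from more of a miRNA per cell.

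Summed over its 11 entries, the family was higher in the oxidative muscle. It held 98937 normalised reads in LDM, or 1.13% of the library (1.12 to 1.14), and 149469 in PMM, or 1.75% (1.74 to 1.76). The sum was 1.51-fold higher in PMM (1.498 to 1.523), a log2 ratio of 0.60, which lay 0.12 above the middle of the libraries. The 5p guides made up most of it, with 85530 and 122926 normalised reads (1.44-fold, 1.42 to 1.45). The 3p strands went from 13407 to 26543 (1.98-fold, 1.94 to 2.02). Ranked by summed reads among the 572 seeds of the table, the guide seed GTAAACA was in place 9 in either muscle, and the seed TTTCAGT of miR-30a-3p, miR-30d-3p and miR-30e-3p was in place 24 in LDM and 18 in PMM.

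Of the 5 members, miR-30a gained the most reads. Without its arms the other 9 entries summed to 84453 normalised reads in LDM and 108027 in PMM, 1.28-fold higher (1.27 to 1.29). This ratio lay below the median of the 91 entries averaging 100 RPM or more (1.39-fold). It was level with the median of the 185 entries averaging 10 RPM or more (1.28-fold). Other families with several members were summed by the same measure for reference. The let-7 family with miR-98, regulators of developmental timing, was 1.24-fold higher in PMM (1.24 to 1.25), and the miR-29 family, known to target collagen mRNAs, was 1.16-fold higher (1.14 to 1.17). The miR-181 family was 1.43-fold higher in LDM. The miR-30 sum thus had the highest ratio of these 4 families, and their counting intervals did not overlap. Sums of further families were not compared, so the ranking holds for these 4 only. The pig entries of other families at 100 RPM or more whose log2 ratio was nearest to that of the miR-30 sum were miR-92a-3p (1.52-fold), miR-374a-5p (1.505-fold) and miR-99a-5p (1.53-fold), a likeness that rests on 2 libraries.

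The 5 guides differed from each other in direction and size. miR-30a-5p had 12221 normalised reads in LDM, the lowest guide there, and 34599 in PMM. It was 2.83-fold higher in PMM (2.77 to 2.89), and 89.2% of the 185 entries averaging 10 RPM or more had a lower ratio. miR-30e-5p went from 21778 to 34615 (1.59-fold, 1.56 to 1.62). These were the only guides above the middle ratio of the libraries.

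miR-30d-5p went from 14758 to 18252 normalised reads (1.24-fold, 1.21 to 1.27), and miR-30c-5p from 22643 to 24888 (1.10-fold, 1.08 to 1.12). Both were higher in PMM as deposited, but lower relative to the median of the libraries, by 0.16 and 0.34 on the log2 scale. miR-30b-5p was the guide listed lower in PMM, from 14130 in LDM to 10572 in PMM (1.34-fold higher in LDM, 1.30 to 1.37).

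The 3p entries spanned a far wider range of levels. miR-30e-3p, the highest, had 10565 normalised reads in LDM and 18429 in PMM (1.74-fold, 1.70 to 1.79). In PMM it stood above the guide miR-30b-5p and within counting error of miR-30d-5p. miR-30a-3p went from 2264 to 6843 (3.02-fold, 2.87 to 3.18) and miR-30c-2-3p from 432 to 1083 (2.51-fold, 2.23 to 2.83). The remaining 3p entries were low. miR-30d-3p had 56 reads in LDM and 130 in PMM (2.02-fold, 1.46 to 2.81), and miR-30c-1-3p had 28 and 41 reads, a difference within counting error (1.27-fold, 0.768 to 2.14). miR-30b-3p had 44 reads in LDM and 17 in PMM, so that it was 2.98-fold higher in LDM (1.67 to 5.56). As for the guides, miR-30b was thus the member listed lower in PMM.

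**Figure D1:**
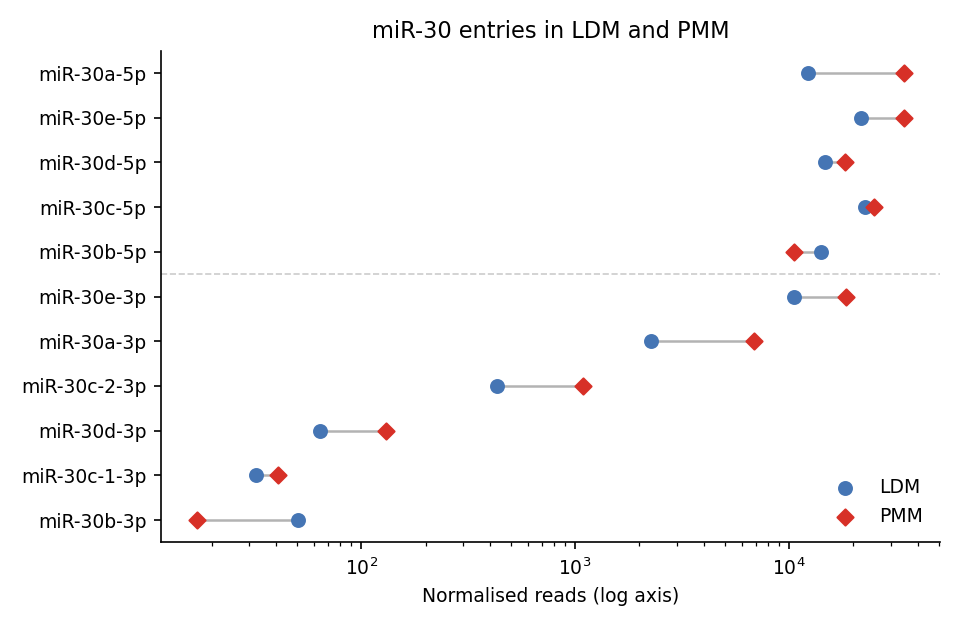
Normalised reads of the 11 miR-30 entries in LDM (circles) and PMM (diamonds) on a log axis, 1 library per muscle, with 5p entries above the dashed line and 3p entries below it. The guides lie between 10572 and 34615 and the 3p entries between 17 and 18429, and only the miR-30b entries are lower in PMM.

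In all, 9 of the 11 entries were higher in PMM and 2 lower, and for 10 of 11 the counting interval of the ratio excluded 1. With 1 RPM added to both values, the median log2 ratio was 0.67 over the 11 entries, 0.31 over the 5p and 0.86 over the 3p entries, against 0.35 over all 185 entries averaging 10 RPM or more, of which 71.4% were higher in PMM. Over the 91 entries averaging 100 RPM or more, a level that 7 of the 11 reached, the median was 0.47 and 79.1% were higher in PMM. Of the 9 members averaging 10 RPM or more, 3 were at least 2-fold higher in PMM (miR-30a-5p, miR-30a-3p and miR-30c-2-3p) and 0 were at least 2-fold lower. miR-30d-3p, 2.02-fold higher as deposited, fell short of the limit with 1 RPM added (log2 ratio 0.92). Among all 185 entries 21.6% were called higher and 6.49% lower by this rule. The 3 entries came from 1 cluster and are not separate evidence. Relative to the median ratio of the libraries, 2 of the 9 members (the miR-30a arms) were at least 2-fold higher and 0 lower, against 11.4% and 14.1% of all entries. With a trimmed mean of log ratios the members were 3 and 0, against 14.6% and 9.73%, and with the library total without the 10 highest entries 2 and 0, against 12.4% in either direction. miR-30c-1-3p and miR-30b-3p were below the level limit.

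The make-up of the guides was compared next, since shares within the family do not depend on how the libraries were scaled. miR-30a-5p held 14.3% of the 5p reads in LDM (14.0 to 14.5), in place 5, and 28.1% in PMM (27.9 to 28.4), in place 2. miR-30e-5p went from 25.5% to 28.2% (27.9 to 28.4), so that miR-30e-5p and miR-30a-5p did not differ beyond counting error in PMM. miR-30c-5p, in place 1 in LDM with 26.5% (26.2 to 26.8), held 20.2% in PMM (20.0 to 20.5). miR-30d-5p went from 17.3% to 14.8%, and miR-30b-5p from 16.5% (16.3 to 16.8) to 8.60% (8.44 to 8.76). All other neighbours in the order of the guides were apart by more than counting error in either library. Reads of different miRNAs were not calibrated for how well each sequence enters a library, so these are shares of reads and not of molecules.

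**Figure D2:**
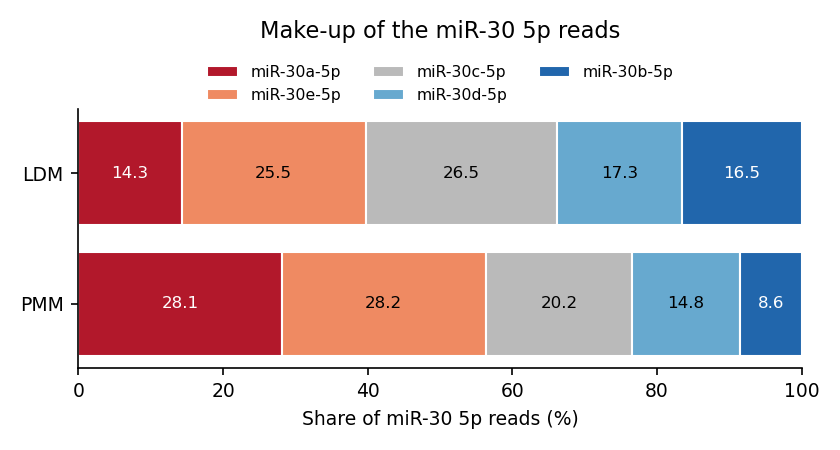
Share of the miR-30 5p reads held by each guide in LDM and PMM, in percent of the reads of the 5 entries of 1 library per muscle. The segment of miR-30a-5p grows from 14.3% to 28.1% and that of miR-30b-5p shrinks from 16.5% to 8.60%.

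Guides that differ by a single base are the most exposed to misassigned reads, and they were set side by side for that reason. The ratio of miR-30a-5p exceeded that of miR-30d-5p by 1.19 on the log2 scale (1.15 to 1.24) and that of miR-30e-5p by 0.83 (0.79 to 0.87), although each pair differs at 1 position. miR-30b-5p lay below miR-30c-5p by 0.55 (0.51 to 0.60). How many reads were shared between such entries was not measured.

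The 6 precursors form 3 paralogous clusters, and whether neighbours change together was asked next. All 6 were found by name in the RefSeq gene table of assembly Sscrofa11.1, which is not the build of the files, so that only names are given. There MIR30A and MIR30C-2 are neighbours within LOC102157778, MIR30E and MIR30C-1 are neighbours within NFYC, a gene for a subunit of the CCAAT-binding factor NF-Y, and MIR30B and MIR30D are neighbours of each other with no host gene, next to ZFAT.

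Over entries with an unshared sequence, the cluster of miR-30a with miR-30c-2 had the highest ratio of the 3. Its entries, miR-30a-5p, miR-30a-3p and miR-30c-2-3p, summed to 14916 normalised reads in LDM and 42525 in PMM (2.85-fold, 2.80 to 2.91). The joined miR-30c-5p (22643 and 24888) was left out. The sums for miR-30a and miR-30e thus held no miR-30c guide, whereas that of miR-30b with miR-30d held both guides. The 3p strands of miR-30a and miR-30c-2 differed by 0.27 on the log2 scale (0.080 to 0.45). The corresponding entries of the cluster of miR-30e with miR-30c-1 summed to 32375 and 53085 (1.64-fold, 1.62 to 1.66), and their 3p strands differed by 0.46, with an interval that held 0 (−0.29 to 1.18) because miR-30c-1-3p had few reads. The strand miR-30c-2-3p exceeded miR-30c-1-3p by 0.98 (0.21 to 1.73), although the hairpins share their 5p entry.

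The guide miR-30c-5p joins both miR-30c precursors and did not lie between the clusters. Its ratio of 1.10 was below those of miR-30c-2-3p (2.51) and miR-30c-1-3p (1.27), although the latter interval reached down to 0.768. Against its cluster neighbours it was lower than miR-30a-5p by 1.37 on the log2 scale (1.32 to 1.41) and lower than miR-30e-5p by 0.53 (0.49 to 0.57). How its reads divide between the precursors cannot be read from the table.

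The cluster of miR-30b with miR-30d was split in both arms. miR-30d-5p exceeded miR-30b-5p by 0.73 on the log2 scale (0.68 to 0.77), and miR-30d-3p exceeded miR-30b-3p by 2.59 (1.60 to 3.60). The opposite directions left the sum of the 4 entries at 29003 normalised reads in LDM and 28971 in PMM, a ratio of 0.999 (0.982 to 1.02). Over the 5p entries, the 3 pairs from the same cluster differed by a median of 0.73 and the other 7 pairs by 0.83. Over the 3p entries the medians were 0.46 for 3 pairs and 0.89 for 12 pairs. The pairs share members, and with 3 pairs in each arm these medians are a description only.

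**Figure D3:**
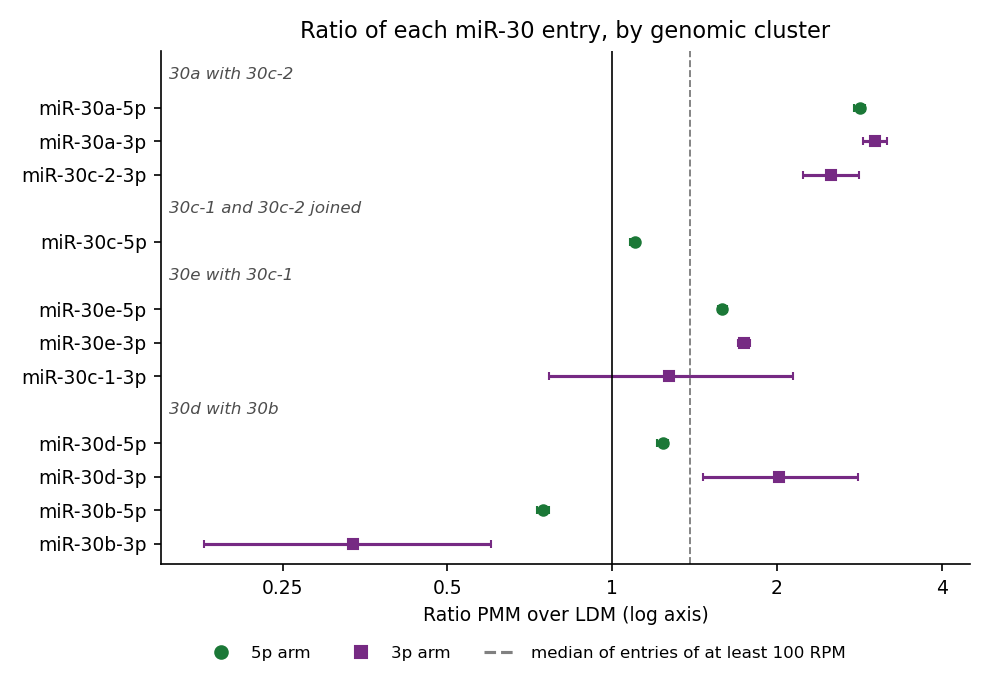
Ratio of PMM to LDM for each miR-30 entry on a log axis, grouped by genomic cluster, with bars for the 95% counting interval, a solid line at 1 and a dashed line at the median of entries of at least 100 RPM (1.39). The entries of miR-30a with miR-30c-2 lie between 2.51 and 3.02, miR-30d lies to the right of 1 and miR-30b to the left.

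Whether the muscles differ in the use of the arms was asked last. The 5p arm was the higher one in all 5 members in both libraries, with the miR-30c copies summed per arm. The 3p share of the reads of both arms was 13.6% over the family in LDM (13.3 to 13.8) and 17.8% in PMM (17.6 to 18.0). With the 3p share of each member held at its LDM value and the members weighted as in PMM, the family value was 16.4%. Thus 2.80 of the 4.21 percentage points went with the make-up of the family and the rest with the 3p shares within members. For miR-30c, with its hairpins summed, that share also depends on the balance between the hairpins.

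In miR-30e the 3p share was 32.7% in LDM (32.1 to 33.2) and 34.7% in PMM (34.3 to 35.1), so that the 3p to 5p ratio was 1.10-fold higher in PMM (1.06 to 1.13). In miR-30a it was 15.6% (15.0 to 16.3) and 16.5% (16.2 to 16.9), a change of 1.07-fold (1.01 to 1.13). These members had the highest 3p shares of the family and the smallest arm changes.

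The passenger strands of the other members were rare and moved more. The 3p share of miR-30c was 2.01% in LDM (1.82 to 2.21) and 4.32% in PMM (4.08 to 4.58), a 2.21-fold higher 3p to 5p ratio (1.96 to 2.48), which rested mainly on miR-30c-2-3p. The miR-30c hairpins share their 5p entry, so a change of arm use cannot be told apart from a change between the hairpins. In miR-30d it was 0.435% (0.329 to 0.564) and 0.707% (0.591 to 0.839), a change of 1.63-fold (1.18 to 2.28). In miR-30b it went the other way, from 0.357% (0.260 to 0.479) to 0.161% (0.0935 to 0.257), a 2.23-fold lower ratio in PMM on 44 and 17 reads.

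These arm changes were of the size seen elsewhere in the table, where rare arms add counting error that was not removed. Among the 64 other pig miRNAs with at least 10 reads in each arm in each library, the median change of 3p over 5p was 0.62 on the log2 scale regardless of sign, and 28.1% changed at least 2-fold. In the miR-30 family the median was 0.71 and 2 of 5 members, miR-30b and miR-30c (with its hairpins summed), changed at least 2-fold. Among the 64 others, the largest change in each direction was that of miR-185 (4.03-fold toward 3p in PMM) and of miR-532 (4.39-fold toward 5p).

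**Figure D4:**
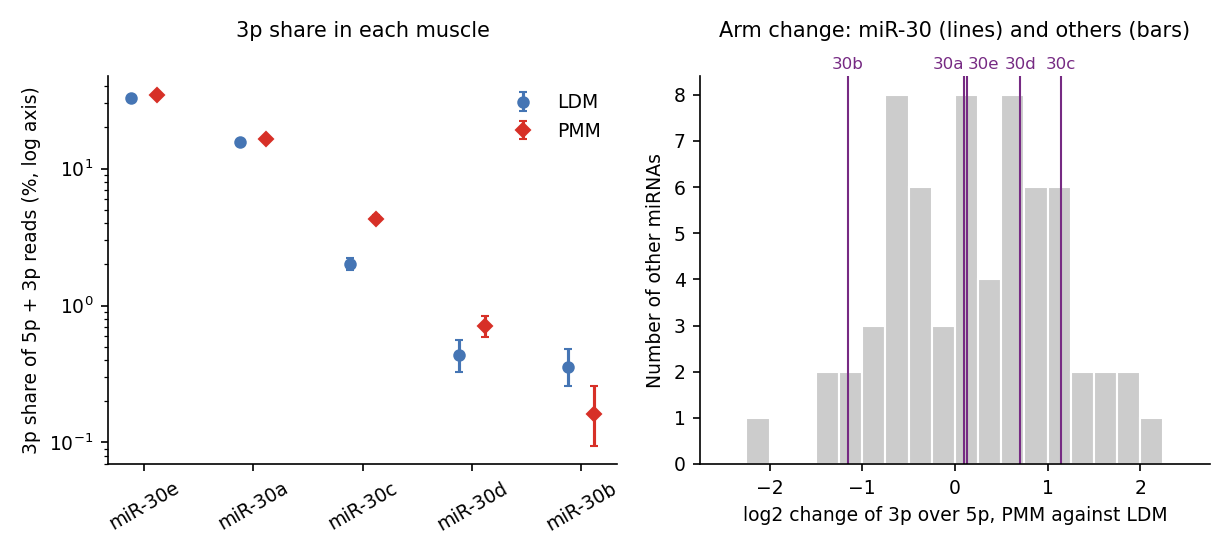
Left, 3p share of the 5p plus 3p reads of each miR-30 member in LDM and PMM, in percent on a log axis, with 95% counting intervals. Right, log2 change of the 3p to 5p ratio from LDM to PMM, with bars for the 64 other miRNAs and lines for the miR-30 members, which run from −1.16 (miR-30b) to 1.14 (miR-30c), with miR-30a and miR-30e near 0.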

How the data were processed

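Small RNA of 10 to 40 nt from RNA pooled per muscle was read single-end at 36 bp by the authors. The submitters' processing notes name the build Sscrofa 10.2, while mapper, miRNA reference and normalisation are not given in the sources used here. In the deposited table the values are a signal of normalised reads per entry. LDM values were whole multiples of 1.15 units and PMM values whole numbers (tolerance 0.001). In each library 1 entry, which was not a miR-30 entry, was off this rule. The step of each library was set to its smallest value above 0 divided by 3, on the assumption that this value stood for 3 reads. Reads were recovered by dividing by that step. The deposited table also lists the length of each consensus sequence in nt, a sum, and the authors' own p-values of the comparison, which were not used.

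Ratios are PMM over LDM of the values as deposited, without a pseudocount. Medians and 2-fold calls used log2 ratios with 1 RPM (8.65 units) added to both values, which understates changes of low entries, and calls required a mean of 10 RPM. Intervals (95%) were exact conditional binomial for ratios, exact Clopper-Pearson for shares and exact conditional for ratios of ratios. Intervals cover counting error only and take reads as independent. Reads carried no molecular identifiers, so copies from amplification could not be told apart and the intervals can be too narrow. No test across muscles was possible with 1 library each. The named miRNAs were all miR-30 entries, the 3 pig entries nearest to the family sum in ratio and the largest arm changes. The latter were taken in each direction among other pig miRNAs with at least 10 reads in each arm in each library. Members and lists were chosen with earlier results of these data known. Scalings, pseudocounts, level and fold limits, summed entries and joined entries were varied. Scripts were tested on simulated data. Computations ran in Python 3.11.15 with scipy 1.17.1, numpy 2.4.6 and pandas 2.3.3, and figures were drawn with matplotlib 3.10.9.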

Additional observations from a re-analysis of the deposited data

How the results depend on the processing

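Shares within the family, arm ratios and differences between members do not depend on the scaling of the libraries, whereas every ratio does. The log2 ratio of the family sum (0.60) was 0.63 with library totals, 0.12 after centring on the median ratio, 0.31 with the trimmed mean and 0.22 with the total without the 10 highest entries. It was 0.52 for 5p entries, 0.99 for 3p entries, 0.57 without the highest member (miR-30e-5p) and, chosen after seeing the data, 0.36 without miR-30a. Over 6 alternatives 8 of 11 members kept their direction. miR-30c-5p (0.14) became −0.33 after centring, −0.15 with the trimmed mean and −0.24 without the 10 highest entries, and miR-30d-5p (0.31) became −0.16 after centring and −0.071 without the 10 highest. miR-30c-1-3p (0.28), whose interval held no difference, became −0.097 and −0.023 under the same settings. In the same order (library totals, centring, trimmed mean, without the 10 highest) and chosen after seeing the data, the log2 ratio of the let-7 sum (0.31) was 0.35, −0.16, 0.026 and −0.063, that of miR-29 (0.21) was 0.24, −0.26, −0.080 and −0.17, and that of miR-181 (−0.52) was −0.49, −0.99, −0.81 and −0.90.

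Of members called 2-fold (3 higher and 0 lower), 6 were higher at a limit of 1.5-fold (40.0% of all entries) and 0 at 4-fold (4.32%), and 1 of 11, miR-30b-3p, was lower with no level limit (5.24%). With 0.1 RPM added in place of 1 RPM, 4 were higher (22.7%), miR-30d-3p among them, and with 10 RPM added 3 were higher (17.8%). The share of miR-30a-5p in LDM and PMM (14.3% and 28.1%) was 12.4% and 23.1% of 5p and 3p reads together, and 19.4% and 35.3% without the joined miR-30c-5p. Read from 3p entries, the differences within clusters were 0.27 for miR-30a with miR-30c-2 (1.37 from 5p), 2.59 for miR-30d with miR-30b (0.73) and 0.46 for miR-30e with miR-30c-1 (0.53). Without the joined entry the clusters of miR-30a and miR-30e gave no 5p value. The cause of these changes was not tested, except that scalings multiply every PMM value by 1 factor. Depth limits miR-30b-3p, miR-30c-1-3p and miR-30d-3p, each under 150 reads. No paired analysis was possible because there was 1 library per muscle.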
